A study of Mus musculus with 36 samples.

Results

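S phase genes are the genes a cell switches on to copy its DNA, and 41 of them were followed here among 54115 annotated mouse genes. The set was drawn up from textbook roles as S phase genes and targets of the E2F factors, with earlier results of these data known. It holds 16 genes of the replicative helicase and its loading and 12 of the DNA polymerases and the factors that work with them. A further 5 serve nucleotide supply, 5 are regulators (cyclins E and E2F factors) and 3 serve chromatin copying. The mice carried an inducible melanoma model with Tyr-CreERT2, in which the Tyr promoter confines the 4-hydroxytamoxifen-activated Cre to melanocytes, and were either wild type for macroH2A (WT) or constitutive double knockouts of H2afy and H2afy2, the genes of the histone variants macroH2A1 and macroH2A2 (dKO). Both genotypes shared the alleles of the melanoma model and a mixed, mostly 129S background with C57BL/6 and FVB, and the knockout was carried by every cell of the dKO mice, host cells of the tumour included.

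RNA was sequenced from 12 bulk melanomas collected 50 days after induction (6 WT of which 4 were female, 6 dKO of which 1 was female, in 3 library batches with 2 of each genotype), from CD8 T cells that had infiltrated tumours (4 WT, 4 dKO) and from cancer-associated fibroblasts sorted on CD140a (CAFs; 4 WT, 4 dKO). These sorted cells also came 50 days after induction, with 2 females and 2 males per genotype. The last 8 libraries came from immortalized dermal fibroblasts (iDFs) of non-tumour-bearing skin, labelled male, starved of serum and then taken at 0 min or after 30 min of serum, with 2 experimental replicates for each genotype and time. The labels name no separate iDF lines within a genotype, so genotype and line cannot be told apart there, and p-values in iDFs measure the spread between experimental repeats. The CD8 libraries were made with a low-input kit, the others after poly(A) selection. Bulk tumours had another version of the poly(A) and library kits than CAFs and iDFs. RNA input was lower for CAFs than for bulk tumours and iDFs. Kit, input and cell type therefore cannot be told apart either. Per library, 22245159 to 85432397 reads were assigned in bulk tumours, 17526618 to 28689963 in CD8 T cells, 20164011 to 29135089 in CAFs and 22560359 to 30960401 in iDFs. The sex labels matched the data in 36 of 36 libraries. Melanocyte, neutrophil and macrophage markers differed between the CD8 libraries, and these values stand beside the CD8 results.

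Replication origins are first marked by the origin recognition complex, and Cdc6 and Cdt1 then load the ring of Mcm2 to Mcm7, which becomes an active helicase when Cdc45 and the GINS complex join it. Polymerase alpha and its primase start each strand, the RFC clamp loader places the Pcna clamp, and polymerases delta and epsilon extend, while ribonucleotide reductase and the thymidylate enzymes supply the nucleotides. Most of these genes are targets of the E2F factors, which are held back by the RB protein in resting cells and released when cyclin D and cyclin E kinases phosphorylate it. E2f1 and E2f2 are activators and E2f8 is an atypical E2F that represses the same targets.

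The letters that E2F factors recognise stood in many of the members' promoters. Windows from 250 bases before to 50 after each annotated start (RefSeq, GRCm38.p6) were found for 35 of the 41 genes; those without one were Mcm4, Gins1, Gins2, Gins4, Pole and Ccne2. A match to TTTCCCGC, TTTGGCGC, TTTCGCGC or TTTGCCGC on either strand, overlapping matches counted separately, was present for 15 of the 35 genes (42.9%, Wilson 95% interval 28.0 to 59.1%) against 704 of 27025 genes in all (2.6%). It was found in 8 of 12 helicase genes, 4 of 11 polymerase genes, none of the 5 nucleotide genes, 1 of 4 regulators and 2 of 3 chromatin genes. Some genes have several windows, and per window the shares were 34.9% of 43 and 2.26% of 32851. CCAAT, the box bound by NF-Y, was present on either strand for 22 of 35 genes (62.9%) against 41.1% of all genes. The looser spelling TTTNNCGC, which contains all 4 written-out motifs, was present for 16 of 35 genes (45.7%) against 5.93%. A match is a description of these letters, and none in a window says nothing about binding. The set was drawn up as E2F targets, so its larger share of E2F matches is no independent result.

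The 5 stretches that follow carry an E2F match of genes whose values are given in every CD8 library: Mcm5 (chr8:75109334-75109393, plus strand), Mcm6 (chr1:128359719-128359778, minus strand), Orc1 (chr4:108579401-108579460, plus strand), Pola1 (chrX:93632260-93632319, minus strand) and Cdc6 (chr11:98907987-98908046, plus strand), which with Orc1 loads the ring. They are 60 bases each, from RefSeq on GRCm38.p6, written 5′ to 3′ on the gene's strand, with the E2F matches in capitals. The match begins at position -149 from the start in Mcm5 (where a second match overlaps it), -47 in Mcm6, -27 in Orc1 and -138 in both Pola1 and Cdc6.
Mcm5: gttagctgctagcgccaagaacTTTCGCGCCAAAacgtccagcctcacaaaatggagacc
Mcm6: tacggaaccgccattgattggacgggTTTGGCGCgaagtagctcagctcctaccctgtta
Orc1: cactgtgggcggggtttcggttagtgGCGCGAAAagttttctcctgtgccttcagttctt
Pola1: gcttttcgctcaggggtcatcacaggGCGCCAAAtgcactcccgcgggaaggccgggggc
Cdc6: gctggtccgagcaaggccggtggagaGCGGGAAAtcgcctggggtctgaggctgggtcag

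The first question was how strongly each WT cell type expressed the set. Levels were compared as TPM, the share of a library's transcripts after correction for their length. The summed TPM of the 41 genes averaged 606 in WT CAFs (range over 4 libraries 560 to 685), 762 in WT bulk tumours (684 to 826, 6 libraries), 2191 in WT CD8 T cells (1974 to 2465, 4 libraries) and 3926 in WT iDFs at 0 min (3918 and 3933). The highest CAF library reached the lowest bulk library, while CD8 T cells and iDFs stood above both without overlap. The mean TPM was highest in iDFs for 35 genes, in CD8 T cells for 5 (Pold1, Rpa2, Fen1, Rrm2 and Slbp) and in bulk tumours for E2f2. It was lowest in CAFs for 33 genes, in CD8 T cells for Cdt1, Dut, Ccne1, E2f1 and E2f8, and in bulk tumours for Gins2, Pcna and Slbp.

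**Figure D1:**
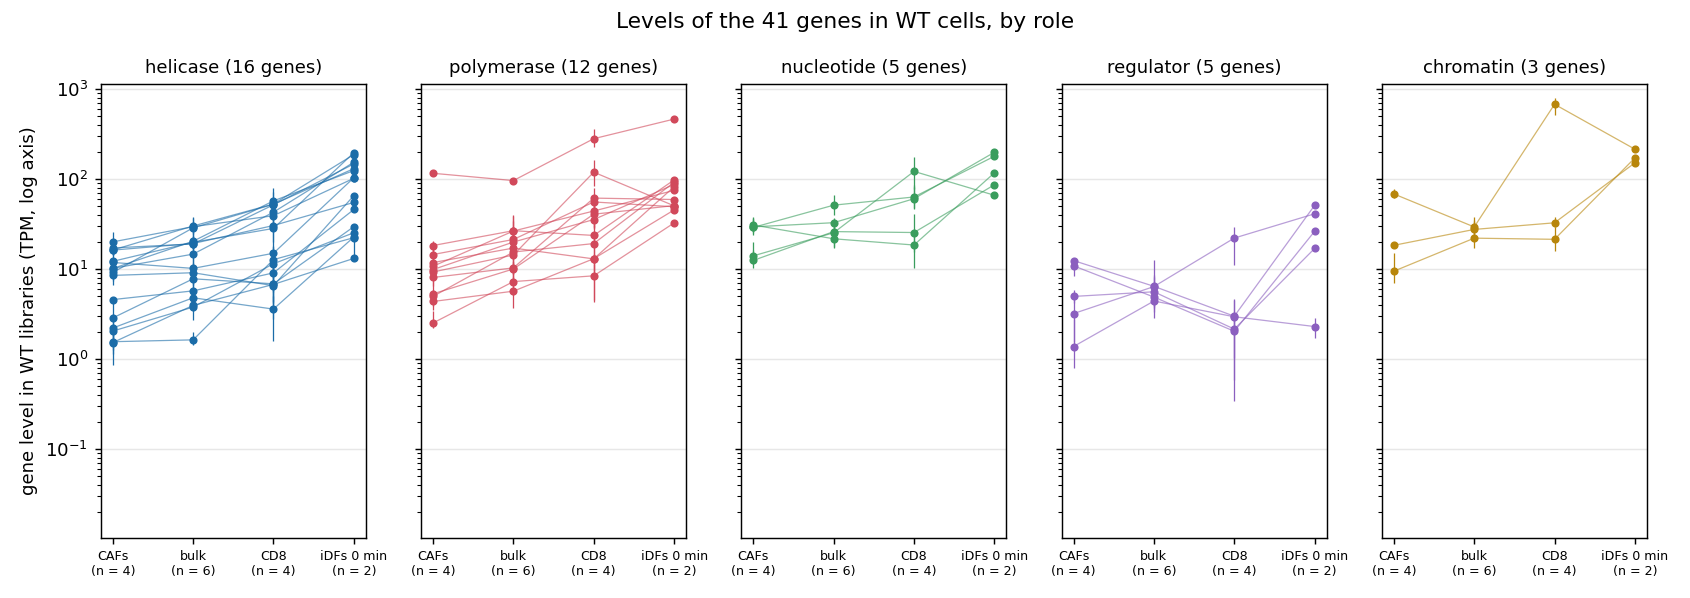
Mean level (TPM, log axis) of each of the 41 genes in WT CAFs, WT bulk melanomas, WT CD8 T cells and WT iDFs at 0 min, arranged by role, with vertical lines for the range over libraries. The iDF points are the highest for 35 genes, and the Slbp point of CD8 T cells (676 TPM) is the highest of all.

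The helicase genes summed to 146 TPM in WT CAFs, 228 in bulk tumours, 427 in CD8 T cells and 1422 in iDFs, and the polymerase genes to 215, 271, 714 and 1183 TPM. The ratio of the polymerase to the helicase sum was 1.48 in CAFs (range 1.34 to 1.61), 1.19 in bulk tumours (1.1 to 1.25), 1.66 in CD8 T cells (1.55 to 1.83) and 0.832 in iDFs (0.826 and 0.838). In CPM, which is not divided by length, the sizes differed but the order of the means stayed. The CPM ratio averaged 1.01 in CAFs (0.888 to 1.11) and 0.849 in bulk tumours (0.795 to 0.887), ranges that nearly met. It averaged 1.07 in CD8 T cells and 0.596 in iDFs. The nucleotide genes summed to 116, 157, 289 and 646 TPM in the same order, and their ratio to the helicase sum was 0.787 (0.75 to 0.849), 0.691 (0.577 to 0.812), 0.673 (0.585 to 0.813) and 0.454 (0.450 and 0.459). The nucleotide ratios of CAFs, bulk tumours and CD8 T cells overlapped, and those of iDFs lay below all of them. Their order depends on the scale. In CPM they averaged 0.544 in CAFs, 0.488 in bulk tumours, 0.551 in CD8 T cells and 0.301 in iDFs. The regulators summed to 32.8, 27.7, 32.2 and 138 TPM and the chromatin genes to 96.1, 78.9, 730 and 537 TPM.

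Slbp, the protein that binds the stem-loop of replication-dependent histone mRNAs, accounted for most of the chromatin sum of CD8 T cells: its level averaged 676 TPM there (515 to 791) against 68.2 in CAFs, 29.3 in bulk tumours and 214 in iDFs. The level of Pcna, the sliding clamp, was 280 TPM in CD8 T cells (225 to 356), 116 in CAFs (114 to 117), 96.1 in bulk tumours (87.6 to 103) and 463 in iDFs (449 and 477). Rrm2, a small subunit of ribonucleotide reductase, averaged 121 TPM in CD8 T cells (78.1 to 175), 66.0 in iDFs (64.5 and 67.5), 25.3 in bulk tumours (17.3 to 30.9) and 14.02 in CAFs (11.4 to 19.8). Among these 3 genes, Slbp and Rrm2 were above the iDF libraries in every WT CD8 library, and Pcna was below them in every one. The level of Mcm5, a subunit of the ring, was ordered from CAFs (10.1 TPM, 8.36 to 13.3), over bulk tumours (20.4, 16.8 to 25.6) and CD8 T cells (57.2, 38.2 to 79.7) to iDFs (124 in both libraries), without overlap between any of the 4 groups.

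E2f1, E2f2, E2f8 and Ccne1 did not follow that order, and Ccne2 did. E2f1 averaged 12.4 TPM in CAFs (11.8 to 13), 6.43 in bulk tumours (3.92 to 8.55), 2.99 in CD8 T cells (1.04 to 4.69) and 51.0 in iDFs (48.9 and 53.1), and Ccne1 averaged 10.9, 4.89, 2.04 and 26.3 TPM. Ccne2, the other cyclin E, averaged 3.20 TPM in CAFs, 6.39 in bulk tumours, 22.1 in CD8 T cells and 41.1 in iDFs. CD8 T cells therefore had more Ccne2 than Ccne1 per length, and CAFs more Ccne1 than Ccne2. E2f2 was low everywhere, with 4.41 TPM in bulk tumours (2.88 to 6.25), 2.95 in CD8 T cells (2.74 to 3.26), 2.30 in iDFs and 1.38 in CAFs (0.804 to 2.77).

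Each WT group was then tested against the WT CAFs with edgeR's quasi-likelihood test over 21475 genes, and a gene was called when its p, adjusted by Benjamini-Hochberg, was under 0.05 and its log2 fold change exceeded 0.75 in size. The 3 contrasts share the CAF libraries. In CD8 T cells 35 members were called higher, beside 33.4% of all tested genes, and 2 were called lower, beside 37.3%. The median log2 fold change of the members was 1.91 against -0.11 for all tested genes. Slbp was highest (4.27, SE 0.20, adjusted p = 1.37e-11), followed by Ccne2 (3.76), Rpa2 (3.69), a subunit of the single-strand binding complex, and Rrm2 (3.56). The lower ones were Ccne1 (-2.03, adjusted p = 0.000406) and E2f1 (-1.64, adjusted p = 0.00032). Cdt1 (0.28), Rfc5 (0.74), Dut (-0.45) and E2f8 (-0.87) were not called.

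In bulk melanomas 15 members were called higher than in CAFs, beside 22.8% of all genes, and 2 lower, beside 14.5%, with a median of 0.52 against 0.16. The highest were E2f2 (1.94, adjusted p = 1.74e-06), the primase gene Prim1 (1.62, adjusted p = 1.2e-05), Gins1 (1.44) and Gins3 (1.39), and Ccne1 (-1.12) and E2f1 (-0.90) were again the lower ones. In a bulk tumour a larger share of cycling cells and more RNA per cell cannot be told apart. In iDFs 39 members were called higher, beside 13.1% of all genes, and none lower, beside 20.8%, with a median of 2.67 against -0.11. Prim1 (3.84), Mcm2 (3.64) and Mcm6 (3.62) led, and Ccne1 (0.99, adjusted p = 0.115) and E2f2 (0.53, adjusted p = 0.112) were not called.

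Genes of other lists gave a partly different picture. Of 12 G2 and mitosis genes, all were called higher in iDFs (median 3.02), 8 in CD8 T cells (0.97) and 6 in bulk tumours (0.78). Mki67, which marks cycling cells, differed from CAFs by 3.18 on the log2 scale in iDFs (adjusted p = 3.08e-05), by 0.98 in bulk tumours (adjusted p = 0.0281) and by 0.79 in CD8 T cells (adjusted p = 0.0632, not called). Of 36 other replication genes, 25 were called higher in CD8 T cells, 9 in bulk tumours and 32 in iDFs, with 1 lower in each. Of 18 genes that control RB and E2F, 3 were called higher and 8 lower in CD8 T cells, 4 higher and 0 lower in bulk tumours, and 8 higher and 2 lower in iDFs. Ccnd1, the cyclin D1 gene, was called lower in CD8 T cells (-2.62) and in iDFs (-4.56).

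The next question was what loss of macroH2A did to the set. The targeted genes are given first. H2afy CPM (reads relative to library depth, scaled by trimmed means) ranged from 90.5 to 122 in WT and from 61.2 to 82.4 in dKO bulk tumours, from 72.8 to 96.5 and 72.1 to 93.9 in CD8 T cells, from 51.8 to 60.7 and 48.7 to 55.3 in CAFs, and from 91.8 to 94.3 and 61.0 to 65.2 in iDFs at 0 min. H2afy2 ranged from 7.97 to 13.2 and 4.69 to 8.41 CPM in bulk tumours, 17.1 to 24.9 and 10.7 to 14.4 in CAFs, and 49.4 to 51.2 and 31.2 to 31.3 in iDFs at 0 min, and reached at most 0.410 CPM in CD8 T cells. Reads over the whole gene do not resolve the deleted part, so these values do not check the genotype labels.

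In bulk melanomas no member was called in either direction, beside 0.0166% of 18097 genes called higher and 0.0276% called lower. At an unadjusted p under 0.05 edgeR gave 3 members lower (Mcm5, Mcm7 and Tk1), beside 3.97% of all genes, and none higher, beside 3.55%, and DESeq2 called none. The log2 fold change of dKO over WT was below 0 for 36 of the 41 genes, against 46.8% of all genes, and its median was -0.17 against 0.02. The fold change was below 0 for 13 of 16 helicase genes (median -0.13), 12 of 12 polymerase genes (-0.17), 5 of 5 nucleotide genes (-0.17), 4 of 5 regulators (-0.18) and 2 of 3 chromatin genes (-0.01). Of the 12 G2 and mitosis genes 10 were below 0 (median -0.14), of 36 other replication genes 23 (-0.03) and of 18 RB and E2F control genes 9 (0.02), with none called. Mki67 differed by 0.01 (adjusted p = 0.993).

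In bulk tumours Mcm5 ran from 33.9 to 52.2 CPM in the 6 WT libraries (median 38.1) and from 27.0 to 42.1 in the 6 dKO libraries (median 33.0), a log2 fold change of -0.37 (SE 0.15, adjusted p = 0.639, edgeR). Mcm7, another subunit of the ring, ran from 45.7 to 56.4 (median 51.0) and from 41.9 to 46.9 (median 44.0), a change of -0.21 (SE 0.09, adjusted p = 0.659). Tk1, the thymidine kinase of S phase, ran from 19.0 to 26.5 (median 22.9) and from 15.7 to 23.8 (median 19.6), a change of -0.31 (SE 0.13, adjusted p = 0.640). The WT and dKO ranges overlapped for all 3. They also overlapped for Pcna (medians 89.7 and 81.5 CPM), Pola1 (22.6 and 19.3), Rrm2 (42.9 and 38.0), E2f1 (13.6 and 13.9) and Ccne1 (6.24 and 7.03). Mcm6 and E2f8, which were called in other cells, differed by 0.00 (SE 0.16) and -0.18 (SE 0.20) on the log2 scale.

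The bulk shift was not equal over the batches and sexes. Within the library batches, each with 2 WT and 2 dKO tumours, the median of the members' log2 differences was -0.25 in batch 1 (35 of 41 below 0), -0.10 in batch 2 (29 below 0) and -0.02 in batch 3 (25 below 0). Between the 2 WT and 5 dKO males it was -0.30, with 40 of 41 below 0, and between the 4 WT females and the 1 dKO female it was 0.14, with 12 below 0. With 1 dKO female, the female value is that of a single tumour. These differences were not corrected for sex within a batch or for batch within a sex. In batch 3 the WT tumours were all female and the dKO tumours all male, so genotype and sex cannot be told apart there. In batch 2 the dKO tumours were all male and the WT tumours of both sexes.

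In CD8 T cells 1 member was called, Mcm6 as higher in dKO, beside 0.261% of 14944 genes, and none as lower, beside 0.234%. Mcm6, a subunit of the helicase ring, measured 42.1, 69.4, 81.4 and 84.4 CPM in WT and 169, 166, 154 and 118 CPM in dKO CD8 T cells. Every dKO library exceeded every WT library, with a log2 fold change of 1.15 (SE 0.18), or 2.22-fold, and an adjusted p of 0.0405 (edgeR). The transcript Mcm6-201 carried a median of 96.5% of the gene's reads in WT and 93.9% in dKO. The adjusted p of Mcm6 was 0.096 without the 2 libraries richest in melanocyte or neutrophil reads, and over 15 alternatives it ran from 2.12e-07 to 0.151, with Mcm6 called in 5 of them. It was lost on leaving out any of 7 of the 8 libraries and kept only without WT 1, while the log2 fold change stayed between 0.93 and 1.27.

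Most other members lay on the opposite side. The log2 fold change was below 0 for 34 of 41 genes against 49.9% of all tested genes, with a median of -0.35 against 0.00, and at an unadjusted p under 0.05 there were 7 members lower, beside 4.26% of all genes, and 4 higher, beside 5.98%. The counts below 0 were 13 of 16 for the helicase genes (median -0.37), 10 of 12 for the polymerase genes (-0.31), 4 of 5 for the nucleotide genes (-0.35), 4 of 5 for the regulators (-0.10) and 3 of 3 for the chromatin genes (-0.45). Complexes were not uniform. In the MCM ring 5 of 6 genes were below 0, at -0.57 to -0.11, beside Mcm6 at 1.15. Of the loading factors Orc1 (-0.95), Cdc6 (-0.84) and Orc6 (-0.33) were below 0 and Cdt1 (0.60) above, and of the clamp loader genes Rfc3 (-0.83) and Rfc4 (-0.31) were below 0 and Rfc5 (0.99) above. Of the 12 G2 and mitosis genes 11 were below 0 (median -0.45) and of 36 other replication genes 26 (-0.18), with none called.

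**Figure D2:**
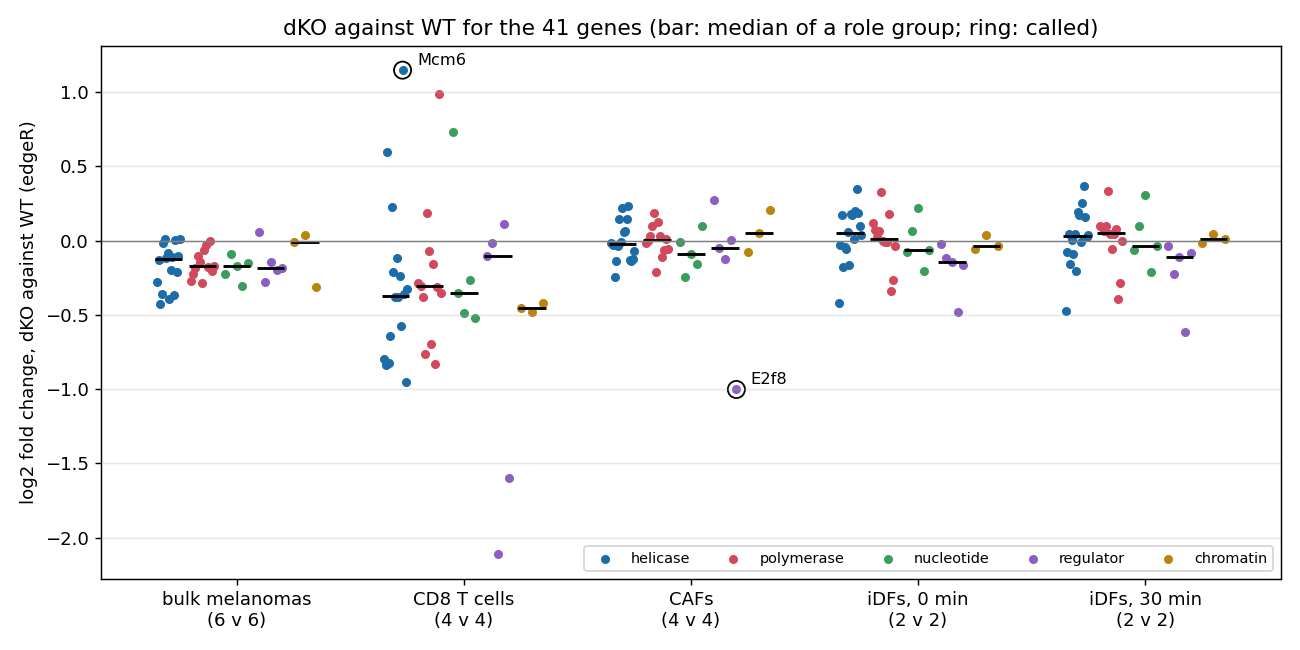
Log2 fold change of dKO over WT for each of the 41 genes in bulk melanomas, CD8 T cells, CAFs and iDFs at 0 and 30 min, coloured by role, with a bar at the median and a ring around called genes. The medians are -0.17, -0.35, -0.01, -0.01 and 0.01, and the rings mark Mcm6 in CD8 T cells and E2f8 in CAFs.

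Within each role, the genes of smallest p show how the CD8 libraries were spread; WT 1 and 2 and dKO 3 and 4 were female and the others male. Orc1, the largest subunit of the origin recognition complex, measured 22.0, 17.3, 14.2 and 18.5 CPM in WT and 13.6, 8.57, 6.69 and 8.68 in dKO (log2 fold change -0.95, SE 0.29, adjusted p = 0.267, edgeR). Pola1, the catalytic subunit of polymerase alpha, measured 64.6, 64.7, 61.3 and 45.4 in WT and 43.8, 44.8, 29.2 and 24.8 in dKO (-0.76, SE 0.23, adjusted p = 0.264). Cdc6 measured 41.2, 29.5, 19.7 and 16.2 in WT and 27.6, 13.5, 7.36 and 11.8 in dKO (-0.84, SE 0.48, adjusted p = 0.612), with overlapping groups. For Orc1 and Pola1 all dKO libraries lay below all WT libraries, yet neither passed the adjusted test. Rfc5, a subunit of the clamp loader, measured 10.6, 24.3, 21.6 and 21.2 in WT and 43.2, 54.0, 39.4 and 21.2 in dKO (0.99, SE 0.31, adjusted p = 0.275). Dut, the enzyme that keeps uracil out of DNA, measured 8.56, 10.7, 14.4 and 15.2 in WT and 18.7, 26.9, 20.8 and 13.8 in dKO (0.73, SE 0.24, adjusted p = 0.310). For Rfc5 and Dut the female library dKO 4 fell within the WT range and the other dKO libraries lay above it.

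E2f1 measured 8.46, 10.03, 2.39 and 6.0 CPM in WT and 3.29, 1.39, 0.885 and 0.810 in dKO CD8 T cells, a log2 fold change of -2.11 (SE 0.70, adjusted p = 0.320 with edgeR and 0.0414 with DESeq2). Only WT 3 fell within the dKO range of E2f1, a gene of few reads in these cells. Its transcript E2f1-201 had 41.99 to 113.3 reads, not scaled for depth, in WT libraries and at most 3.21 in dKO libraries. Reads of its transcript E2f1-202 overlapped (21.01 to 79.7 in WT, up to 75 in dKO). The genotypes were thus separated in the reads of E2f1-201 only, and single transcripts were not tested. E2f8 measured 8.51, 7.43, 6.37 and 0.564 in WT and 5.35, 2.99, 0 and 1.33 in dKO (-1.60, SE 1.41), with overlapping groups. Rrm1, the large subunit of ribonucleotide reductase, measured 208, 181, 158 and 138 in WT and 150, 143, 128 and 114 in dKO (-0.35, SE 0.16, adjusted p = 0.507). Dnmt1, the maintenance DNA methyltransferase, measured 171, 122.6, 143 and 128 in WT and 113, 105, 90.2 and 104 in dKO (-0.45, SE 0.14, adjusted p = 0.302), again with all dKO libraries below all WT libraries. Slbp measured 729, 557, 954 and 919 in WT and 564, 562, 441 and 660 in dKO (-0.48, SE 0.17, adjusted p = 0.376), and only WT 2 fell within the dKO range.

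The other representatives of each role overlapped between genotypes. Mcm5 measured 182, 128, 107 and 83.0 CPM in WT and 122, 105, 60.3 and 56.3 in dKO CD8 T cells (-0.57, SE 0.33, adjusted p = 0.616). Rrm2 measured 308, 157, 237 and 132 in WT and 199.7, 155, 97.8 and 148 in dKO (-0.49, SE 0.31, adjusted p = 0.648). Pcna measured 347, 215, 268 and 221 in WT and 206, 210, 164 and 226 in dKO (-0.38, SE 0.18, adjusted p = 0.537). The highest value of all 3 was that of the female library WT 1. Ccne1 measured 1.59, 5.56, 3.30 and 0.564 in WT and 1.36, 1.67, 2.55 and 5.33 in dKO (-0.10, SE 0.67), with no separation.

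The CD8 values moved with sex and with the library. As the median over the 41 genes of the log2 deviation from each gene's mean, the WT females stood at 0.51 and 0.27, the WT males at 0.10 and -0.15, the dKO males at 0.11 and 0.10, and the dKO females at -0.42 and -0.39. The G2 and mitosis genes stood at 0.86 and 0.52, -0.06 and -0.37, -0.02 and 0.04, and -0.50 and -0.31 in the same order. In both medians the WT females lay above the dKO females, by more than any gap between the males. The 4 female libraries were also the shallowest, and among them WT 1 held 245.8 CPM of melanocyte markers (7.03 to 13.6 in the other 7 CD8 libraries) and dKO 3 held 42.0 CPM of neutrophil markers (1.02 to 9.79 in the others). Without WT 1 and dKO 3 the median of the members was -0.15. Fibroblast markers summed to 2.18 to 1457 CPM in WT and 88.8 to 2825 CPM in dKO, with the 2 highest sums in the dKO females, and macrophage markers to 48.1 to 463 and 93.0 to 541 CPM, beside T cell markers of 4590 to 7512 CPM. The part of these markers and of depth in the members' values was not tested further.

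**Figure D3:**
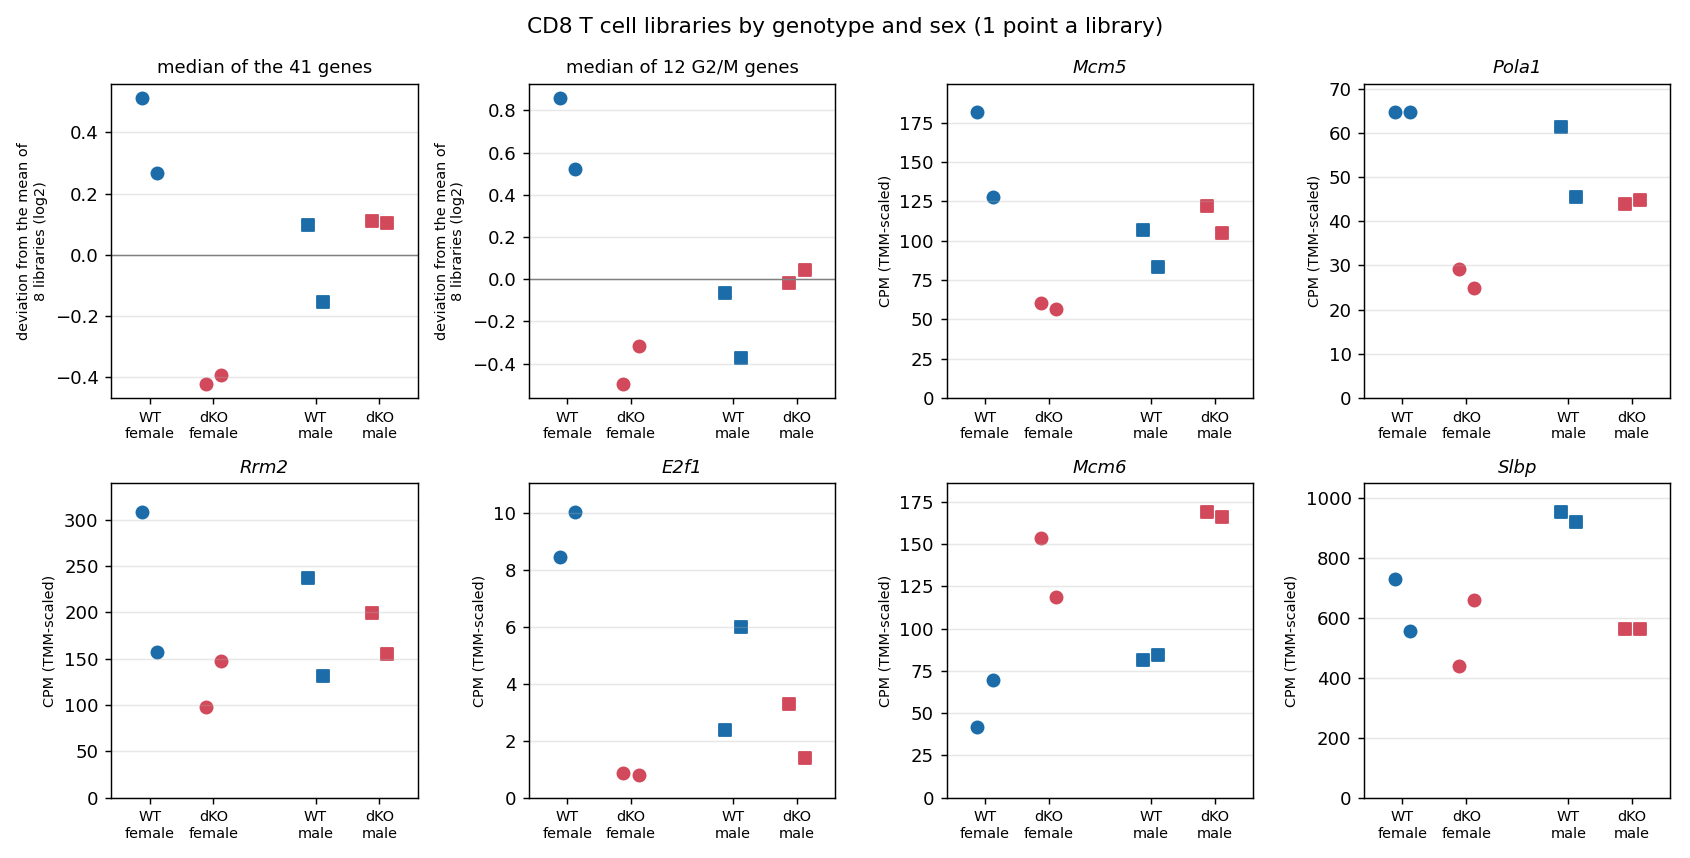
Values of each CD8 T cell library by genotype and sex (circles female, squares male; blue WT, red dKO): the median log2 deviation of the 41 S phase genes and of 12 G2 and mitosis genes, and the CPM of Mcm5, Pola1, Rrm2, E2f1, Mcm6 and Slbp. The dKO females (-0.42 and -0.39) sit lowest and the WT females (0.51 and 0.27) highest in the median of the 41 genes, and in Mcm6 every dKO library lies above every WT library.

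A model with a genotype effect in each sex, added after the CD8 values were seen and with 4 residual degrees of freedom, gave these differences a size. In females the median log2 fold change of the members was -0.84, with 34 of 41 below 0. At an unadjusted p under 0.05 there were 22 members lower, beside 4.44% of all genes, and 2 higher, beside 5.45%. No member was called by edgeR in females, beside 0.0401% of all genes called higher and 0.0602% lower (smallest adjusted p of a member 0.119), while DESeq2 gave 12 members an adjusted p under 0.05 as lower, beside 1.39% of the genes it tested, and 1 as higher, beside 1.77%. In males the median was 0.20, with 14 of 41 below 0. At an unadjusted p under 0.05 there were 1 lower, beside 3.5% of all genes, and 2 higher, beside 3.67%. No member was called by edgeR in males, beside 0.0335% of genes called higher and 0.0535% lower, and DESeq2 gave Mcm6 alone an adjusted p under 0.05 (0.0413), beside 0.724% of genes higher and 0.877% lower. Mcm5 differed by -1.41 in females and 0.26 in males, Cdc45, which joins the ring to form the active helicase, by -1.81 and 0.21, and Pola1 by -1.26 and -0.27. Mcm6 was above 0 in both sexes, at 1.29 (SE 0.26) and 1.01 (SE 0.26).

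The difference between the sexes itself had a median of -0.87 over the members, with 36 of 41 below 0. At an unadjusted p under 0.05 there were 18 members lower, beside 2.52% of all genes, and 0 higher, beside 2.88%. No gene was called by edgeR for this difference, 0.0% of all genes in either direction, and the smallest adjusted p of a member was 0.767. DESeq2 gave 2 members an adjusted p under 0.05, Mcm5 (-1.65, adjusted p = 0.0063) and Rpa2 (-1.25, adjusted p = 0.0210), beside 0.188% of genes lower and 0.362% higher. All 12 G2 and mitosis genes were below 0 in females (median -0.95) and 2 of 12 in males (median 0.24). With 2 libraries per sex and genotype, sex, depth and the marker-rich libraries cannot be told apart in these values.

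In CAFs 1 member was called lower in dKO, E2f8, beside 4.03% of 15786 genes, and none higher, beside 1.45%. E2f8 measured 11.3, 9.84, 8.41 and 8.12 CPM in WT and 4.46, 5.30, 2.98 and 5.91 CPM in dKO CAFs, with every dKO library below every WT library. In each genotype CAF libraries 1 and 2 were male and 3 and 4 female. The log2 fold change was -1.0 (SE 0.20), a ratio of 0.499, with an adjusted p of 0.0212 (edgeR). Most E2f8 reads fell to the transcript E2f8-202, a median of 68.5% in WT and 81.8% in dKO. The adjusted p ran from 0.000162 to 0.0645 over 14 alternatives, E2f8 was called in 9 of them, and the call was lost without WT 1, 2, 3 or 4 or dKO 1, with the log2 fold change between -1.25 and -0.86. E2f8 differed by -0.18 in bulk tumours (adjusted p = 0.840) and by -0.16 in iDFs at 0 min (adjusted p = 0.126), neither called.

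**Figure D4:**
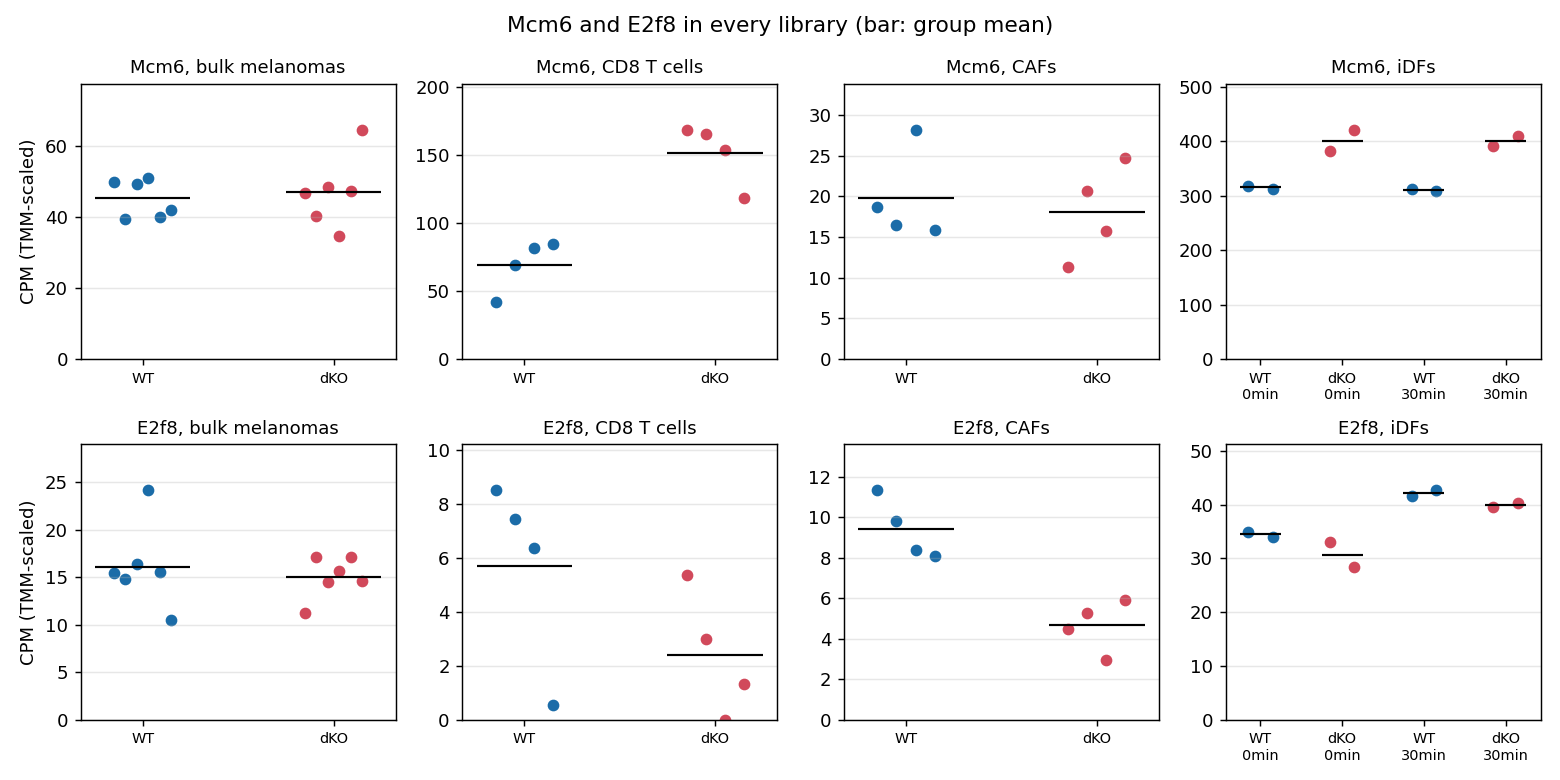
CPM of Mcm6 and E2f8 in every library of the 4 experiments by genotype, with group means as bars. Mcm6 is higher in all 4 dKO than in all 4 WT CD8 libraries, and E2f8 is lower in all 4 dKO (2.98 to 5.91) than in all 4 WT CAF libraries (8.12 to 11.3).

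The other 40 members showed no call in CAFs. The log2 fold change was below 0 for 24 of 41 genes against 49.6% of all genes, and the median was -0.01 against 0.00. Ccne1, which drives entry into S phase, measured 9.0, 8.58, 10.9 and 11.4 CPM in WT and 10.7, 12.9, 12.2 and 12.1 in dKO (0.27, SE 0.10, adjusted p = 0.136, edgeR), and it was the only member above 0 at an unadjusted p under 0.05, beside 12.4% of all genes above and 13.5% below. Mcm5 measured 13.96, 12.2, 19.1 and 12.3 in WT and 14.1, 17.7, 13.9 and 21.9 in dKO (0.24, SE 0.19). Pcna (0.03), Pola1 (0.10), Rrm2 (-0.09) and E2f1 (-0.12) lay within overlapping groups as well. Mcm6 measured 18.7, 16.5, 28.2 and 15.9 in WT and 11.4, 20.7, 15.7 and 24.7 in dKO (-0.13, SE 0.26), so the difference of Mcm6 in CD8 T cells had no counterpart in these libraries. Of the 12 G2 and mitosis genes 8 were below 0 (median -0.11), and Mki67 differed by 0.34 (adjusted p = 0.308). Among 36 other replication genes Pold4, the smallest subunit of polymerase delta, was called lower (46.0, 51.2, 25.9 and 26.4 CPM in WT, 17.0, 20.5, 17.9 and 15.1 in dKO; -1.02, SE 0.15, adjusted p = 0.00785), with no overlap and still called under 13 of 14 alternatives. The WT males stood at 46.0 and 51.2 CPM and the WT females at 25.9 and 26.4, so the value of -1.02 pools unlike WT levels.

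Melanocyte markers summed to 455 to 653 CPM in WT and 113 to 425 in dKO CAFs, and keratinocyte markers to 35.3 to 65.0 and 7.85 to 32.5, both without overlap between the genotypes. Their part in the E2f8 and Pold4 values was not tested. In the model by sex no member was called in female CAFs (0.526% of genes called higher, 1.93% lower) or in male CAFs (0.443% and 1.55%), nor for the difference between the sexes, where 0.0% of genes were called in either direction.

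The genotype effect in CD8 T cells was then tested against that in CAFs in 1 fit of the 16 sorted libraries. No member was called, beside 0.715% of 18752 genes called higher and 0.368% lower. The difference was below 0 for 35 of 41 genes against 54.1% of all genes, and its median was -0.40 against -0.06. At an unadjusted p under 0.05 it was above 0 for Mcm6 (1.23, SE 0.33, adjusted p = 0.106), Cdt1, Rfc5 and Dut and below 0 for Gins2, Pola1 (-0.92, adjusted p = 0.151), E2f1 (-2.02, adjusted p = 0.167) and Slbp, beside 6.9% of all genes above and 7.55% below. The effects of the 2 cell types were therefore not shown to differ for any single member at the adjusted threshold with edgeR.

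In iDFs the replicates lay closest together, and the differences between genotypes were small. At 0 min no member was called, beside 3.93% of 15047 genes called higher and 5.11% lower, and at 30 min none, beside 3.88% and 5.08%. The members' medians were -0.01 and 0.01 against 0.00 and -0.01 for all genes. Without the fold threshold, 8 members passed the adjusted p higher and 3 lower at 0 min, and 6 higher and 6 lower at 30 min, beside 16.2% of all genes higher and 15.2% lower at 0 min and 16.8% and 15% at 30 min. The following genes are those that passed the adjusted p but not the fold threshold.

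The MCM ring was above 0 almost as a whole, with 5 of 6 genes past the adjusted p as higher at both times. The share of all genes was 16.2% at 0 min and 16.8% at 30 min, and the ring's median was 0.18. Mcm6 measured 318 and 313 CPM in WT and 381 and 421 in dKO at 0 min (0.35, SE 0.05, adjusted p = 0.001, edgeR), and 312 and 308 against 392 and 410 at 30 min (0.37, adjusted p = 0.000697). Mcm5 measured 185 and 184 in WT and 210 and 214 in dKO at 0 min (0.20, adjusted p = 0.00436). Mcm2 (0.18), Mcm3 (0.18) and Mcm7 (0.19) differed by about as much at 0 min, and Mcm4, with 307 and 299 in WT and 299 and 313 in dKO, by 0.01. Pola2, the regulatory subunit of polymerase alpha, measured 84.5 and 89.5 in WT and 108 and 110 in dKO at 0 min (0.33, SE 0.05, adjusted p = 0.000754), while Pola1, its catalytic partner, differed by 0.07 (adjusted p = 0.362).

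None of the genes that join the loaded ring, Cdc45 and GINS, passed the adjusted p as higher. Cdc45 measured 46.5 and 47.8 CPM in WT and 35.5 and 35.1 in dKO at 0 min (-0.42, SE 0.06, adjusted p = 0.000555), and 51.2 and 52.5 against 38.9 and 35.8 at 30 min (-0.47, adjusted p = 0.000282). None of the 4 GINS genes passed the adjusted p at either time (medians -0.05 and -0.04). The clamp loader was split: Rfc4 (30.8 and 27.0 in WT, 23.0 and 22.7 in dKO; -0.34, adjusted p = 0.0072) and Rfc5 (71.3 and 71.7 in WT, 60.2 and 58.7 in dKO; -0.27, adjusted p = 0.00449) were lower at 0 min, and Rfc3 was higher (0.18, adjusted p = 0.0195). Rfc3 and Cdt1 (0.17, adjusted p = 0.0178) passed the adjusted p at 0 min alone, and Rfc3 differed by 0.08 at 30 min. Mcm10 (-0.20), Ccne2 (-0.22) and E2f2 (-0.61) passed it at 30 min alone. The genotype effect was not shown to differ between the times for any of these genes. No nucleotide gene passed at either time, the nearest being Rrm2 at 30 min (78.2 and 87.6 in WT, 109.5 and 96.0 in dKO; 0.31, adjusted p = 0.0617). Of the other representatives, Pcna (0.02), E2f1 (-0.14), Ccne1 (-0.03) and E2f8 (-0.16) did not pass at 0 min.

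**Figure D5:**
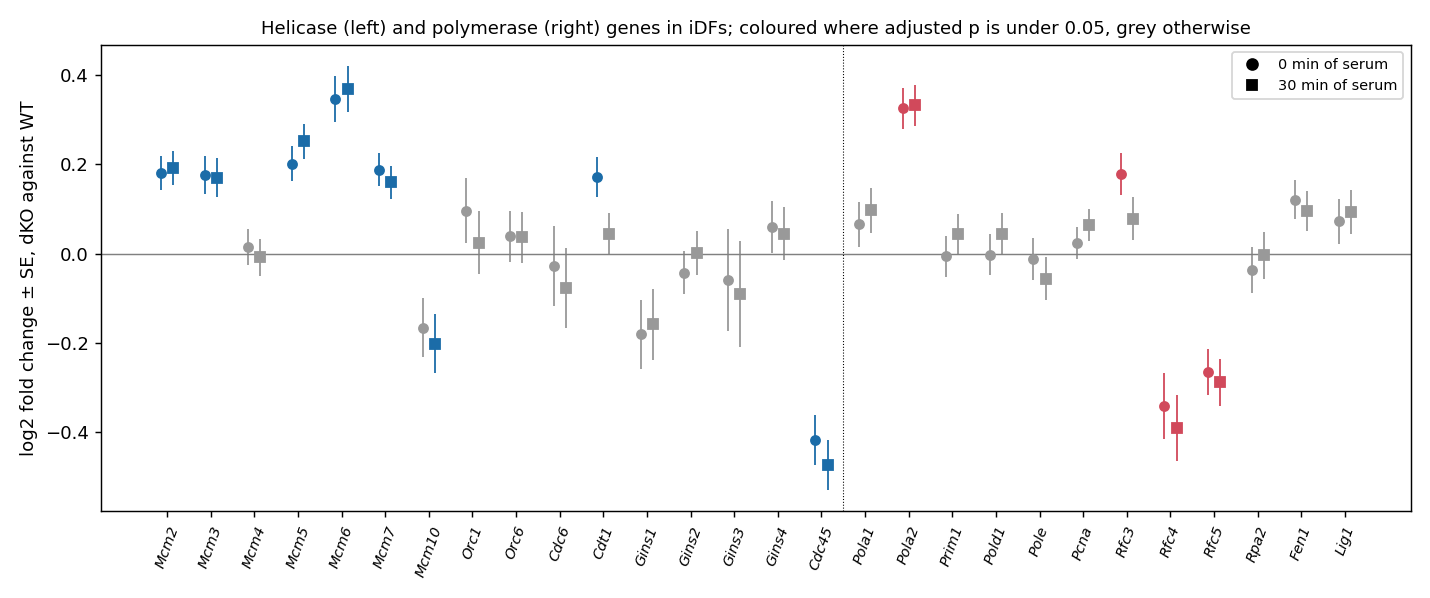
Log2 fold change of dKO over WT with its standard error for the helicase and polymerase genes in iDFs at 0 min (circles) and 30 min (squares), coloured where the adjusted p was under 0.05. Mcm2, Mcm3, Mcm5, Mcm6, Mcm7 and Pola2 lie above 0 and Cdc45, Rfc4 and Rfc5 below 0 at both times.

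Other cell cycle genes differed between the iDF genotypes as well. All 12 G2 and mitosis genes were below 0 at both times (medians -0.40 and -0.39), and 7 of them passed the adjusted p at each time without reaching the fold threshold. Mki67 was among them (-0.39 at 0 min, adjusted p = 0.00309). Ccnd1, whose product opens the RB and E2F switch, was called higher in dKO at 0 min (26.5 and 28.7 CPM in WT, 53.8 and 83.6 in dKO; 1.32, adjusted p = 0.0146) and at 30 min (1.25, adjusted p = 0.0177). The 2 dKO values of Ccnd1 at 0 min lay further apart than the 2 WT values. With 1 library left out at a time, the log2 fold change of Ccnd1 ran from 0.964 to 1.595 at 0 min. At 30 min it ran from 1.05 to 1.41. Each of these fits left 1 library in a group, and not all of them kept the call at either time.

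Serum for 30 min called no member in WT iDFs, beside 1.54% of genes called higher and 0.412% lower, or in dKO iDFs, beside 2.14% and 1.14%. These contrasts use the same libraries as the genotype contrasts. Without the fold threshold, 2 members passed the adjusted p higher and 1 lower in WT, beside 3.62% and 1.33% of all genes, and 4 higher and 2 lower in dKO, beside 5.94% and 3.71%. Orc1 went from 22.3 and 23.9 to 34.2 and 36.8 CPM in WT (0.62, SE 0.07, adjusted p = 0.00159) and from 25.7 and 23.6 to 35.5 and 36.8 in dKO (0.55, SE 0.07, adjusted p = 0.00173). Slbp went from 144 and 140 to 167 and 172 in WT (0.25, adjusted p = 0.00862) and from 144 and 148 to 173 and 177 in dKO (0.26, adjusted p = 0.00509). Rpa2 went from 45.3 and 46.8 to 39.3 and 37.9 in WT (-0.25, adjusted p = 0.0244) and from 45.4 and 44.4 to 39.1 and 37.9 in dKO (-0.22, adjusted p = 0.0286). For these 3 genes the 30 min libraries did not overlap the 0 min libraries in either genotype.

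Pcna (0.16), E2f8 (0.37) and Cdt1 (-0.17) passed the adjusted p in dKO iDFs, and in WT iDFs they differed by 0.12, 0.29 and -0.05 without passing it. The interaction of genotype and serum called none of the members, beside 0.0133% of genes called higher and 0.0% lower, and their interaction values ran from -0.13 to 0.09.

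Some readings rest on few or shared reads. Per library the members had 69 to 8682 reads in bulk tumours, 0 to 25181 in CD8 T cells, 20 to 2046 in CAFs and 52 to 12797 in iDFs, and E2f8 in dKO 3 was the CD8 value of 0. The processed pseudogene Pcna-ps2 took a median of 10.4% of the reads of Pcna and Pcna-ps2 together (0 to 25% over libraries), so the level of Pcna is uncertain by that share, and Tyms-ps took at most 0.842% of those of Tyms.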

How the data were processed

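RNA-seq was analysed from 36 mouse libraries. The authors quantified single-end reads with Salmon 1.2.1 against the Gencode M25 transcripts of GRCm38.p6 and deposited, per transcript and library, an estimated count, the TPM and the effective length. The deposited estimated counts and TPM were summed per gene with a Gencode M21 annotation of the same genome, in which 99.15% of transcripts had a gene, and 0.246 to 0.521% of reads per library had none. Counts were rounded and tested with edgeR 4.0.16 (quasi-likelihood, TMM scaling, filterByExpr with a minimum count of 10 and total of 15) in R 4.3.3, with batch and sex in bulk tumours, sex in sorted cells and 1 fit of 4 groups in iDFs. A call needed a Benjamini-Hochberg adjusted p under 0.05 over all tested genes and an absolute log2 fold change above 0.75. Library deviations used log2(CPM + 0.5). DESeq2 1.42.0, other scaling, no filter, a length offset and leaving out each library were alternatives. The edgeR fits of bulk tumours, CD8 T cells, CAFs and iDFs and of the model by sex were checked on simulated counts. Depth was 17526618 to 85432397 reads per library, and intervals cover counting error only.

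The members, the other gene lists and the comparisons were chosen with earlier results of these data known. Values in every library were given for called members, for the 2 of smallest p within each role in CD8 T cells (with Cdc6, named after its values were seen as the partner of Orc1) and for the fixed representatives Mcm5, Pcna, Pola1, Rrm2, Ccne1 and E2f1. Of the other lists, called genes, Mki67 and Ccnd1 were named. Promoter windows came from RefSeq (GRCm38.p6). No pair of libraries within a group agreed within sampling noise (lowest chi-square per degree of freedom 3.97). 1 item of the mouse model is not reported here.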

Additional observations from a re-analysis of the deposited data

Results flagged for a closer look

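Rrm2 in the WT CAF library 3 stood apart from its group. It measured 23.0 CPM, against 13.3 to 13.98 CPM in the other 3 WT CAF libraries, and the gap took 0.93 of the group's range. In 68 groups of members and libraries examined this way it was the only such value, and chance alone sets apart about 1 in 20 groups. The same library also had the highest median over all 41 genes among the CAFs (0.30 on the log2 scale) and the highest over the G2 and mitosis genes (0.56).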

How the results depend on the processing

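In CD8 T cells, members called higher numbered 2 with no low-count filter and 0 with a length offset, without sex in the model, without the 2 marker-rich libraries and in either sex alone; members called lower numbered 1 with DESeq2 and 2 with no filter. The CD8 median was -0.84 in females and 0.20 in males. In CAFs 0 members were called lower in females or in males. Without the fold threshold the iDF counts were 8 and 3 at 0 min and 6 and 6 at 30 min. For serum they were 2 and 1 in WT and 4 and 2 in dKO. Also without the fold threshold, 26 members were called higher in WT bulk tumours than in WT CAFs. The share of all genes is not given for that bulk count, so it cannot be judged against a background. With the fold threshold 22.8% of all genes were already called higher there. With the length offset the medians were -0.017 in iDFs at 30 min, 0.050 and 0.026 for serum in WT and dKO, -0.017 for their interaction and 1.55 for WT CD8 T cells over CAFs. DESeq2 called 1 member higher and 1 lower between the CD8 and CAF effects. With CPM in place of TPM the log2 nucleotide to helicase ratio over that of CAFs was 0.0052 in CD8 T cells (TPM -0.24) and -0.86 in iDFs (TPM -0.79).

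Leaving out 1 library gave 0 to 1 CD8 members called higher, 0 to 1 CAF members called lower, 0 to 1 iDF members called lower at 30 min (1 without dKO replicate 1) and 0 to 1 called lower between the CD8 and CAF effects (1 without CD8 WT 3 or dKO 1). The CD8 call was lost without any library but WT 1, and the CAF call without WT 1, 2, 3 or 4 or dKO 1. Medians ran from -0.0020 to 0.014 in iDFs at 0 min, from -0.015 to 0.016 for serum in WT and from -0.0030 to 0.023 in dKO. Ccne1 in CD8 T cells ran from -0.43 to 0.60 (main -0.10), turning to 0.26 without WT 2, 0.60 without WT 3, 0.0047 without dKO 1 and 0.038 without dKO 3. A fit with a replicate block in iDFs left 0 members called in every iDF contrast (medians -0.0056 and 0.0085 at 0 and 30 min); the shared numbers correlated at 0.073 to 0.27 between groups and were not taken as a pairing. Across all alternatives 469 of the summary values stayed as reported and 48 moved, and of the values of single genes 529 stayed, 22 lost and 23 gained the threshold and 4 changed sign; the causes were not tested.

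Few libraries per group limit the CD8 and CAF tests, and low reads limit E2f1, E2f8, Ccne1 and Gins1 in CD8 T cells and Gins1 in CAFs.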
